A study of Mus musculus with 6 samples.

Results

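Chaperones bind unfolded or newly made proteins and help them reach and keep their shape. The gene rows described here are those of the heat shock proteins, the cytosolic chaperonin TRiC, the DnaJ proteins and the heat shock factors in mouse oocytes with and without Rtcb, whose product is an RNA ligase needed for tRNA splicing. Members were taken by symbol: Tcp1, and every symbol that begins with Cct and a digit from 2 to 8, with Hsp followed by a, b, d, e, h or a digit, with Hsf and a digit, or with Dnaja, Dnajb or Dnajc and a digit. The 5 endoplasmic reticulum (ER) chaperones Hspa5, Hsp90b1, Dnajb9, Dnajb11 and Dnajc3 were set apart, which left 85 of the 23235 gene rows. They are 10 TRiC symbols, 13 of the HSP70 and HSP110 families, 2 of HSP90, 8 numbered small heat shock protein (Hspb) symbols, the HSP60 and HSP10 pair, 5 heat shock factors, 42 DnaJ genes and 3 others that the patterns catch. The rule goes by name and not by place in the cell. From textbook knowledge, at least 8 of the members work in mitochondria (Hspd1, Hspe1, Hspa9, Dnaja3, Dnajc11, Dnajc15, Dnajc19 and Dnajc30) and at least 9 in or on the ER, so the set is wider than the cytosol.

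TRiC is a double ring of related subunits, each made from its own gene, that folds actin, tubulin and other large proteins. HSP70 proteins bind short stretches of unfolded chain in cycles driven by ATP. DnaJ proteins bring them their clients and start ATP hydrolysis, and HSP110 proteins act as their nucleotide exchange factors. HSP90 completes the folding of kinases and receptors, small heat shock proteins hold unfolded proteins without ATP, and HSF1 is the main activator of these genes under stress. A fully-grown oocyte stores much of the mRNA and protein that the early embryo draws on, and in the mouse HSF1 is known as a maternal-effect factor.

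The samples were fully-grown germinal vesicle (GV) oocytes, which are arrested before the first meiotic division, of C57BL/6 mice after PMSG (a hormone that stimulates follicle growth) for 44 to 48 h. There were 3 libraries with a knock-out of Rtcb (Rtcb KO) and 3 of wild type (WT), each of 10 oocytes, made by Smart-seq2, which primes polyadenylated RNA with oligo-dT. The labels name neither the deleted part of Rtcb, nor a Cre driver, nor the animals behind each library, and give no age beyond the mark "6W" in the sample titles. P-values therefore speak only of library-to-library spread, part of which may be technical. Values are FPKM (fragments per kilobase of transcript, relative to all fragments of the library), a level per length, after the authors' scaling to ERCC spike-in RNA. Read depth per library is unknown, and a lower level per oocyte and fewer intact oocytes cannot be told apart.

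Where 3 values are given for a genotype, they are libraries 1, 2 and 3 in that order. Rtcb itself, whose row has the older name D10Wsu52e, stood at 3.82, 2.62 and 2.49 FPKM in Rtcb KO, against 136, 133 and 113 FPKM in WT. The groups lie far apart, in the direction of the labels (log2 fold change −5.02, limma adjusted p = 1.36e-05). Rtcb KO library 2 lay nearer to WT on the first principal component (35.8) than libraries 1 (48.2) and 3 (49.4), with WT between −45.4 and −43.4. All 10 oocyte markers were present in every library (at least 22.1 FPKM). Of 12 granulosa and cumulus cell markers 6 reached a mean of 1 FPKM, and the list summed to between 46.9 and 59 FPKM in Rtcb KO and between 59.2 and 65.8 FPKM in WT. Theca and stroma marker sums lay between 0.794 and 1.05 FPKM in Rtcb KO and between 1.22 and 2.08 FPKM in WT. Leukocyte marker sums lay between 0.879 and 18.1 FPKM in Rtcb KO (the highest in library 2) and between 2.88 and 4.84 FPKM in WT. Both erythrocyte markers were listed at 0.

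In Rtcb KO oocytes some chaperone genes rose and more fell, in shares close to those of all tested genes. Hsf2, Hspb1 and the TRiC subunit genes Cct6a and Cct4 rose 2.55-fold to 5.2-fold, while Hsf1, Hspa8 and 4 other TRiC subunit genes fell by 1.93-fold to 2.26-fold. Of 33 tested DnaJ genes 19 fell, near the 54% of all tested genes. Of the 85 members, 65 had a mean of at least 1 FPKM and were tested on log2(FPKM + 1) with limma, across all 12029 genes that passed the same filter. At an adjusted p under 0.05, 5 were higher in Rtcb KO, where 9.29% of all tested genes were, and 36 were lower, where 54% of all tested genes were. Without Rtcb KO library 2, 8 members were higher and 35 lower. The median log2 fold change was −0.43 over the 65 members tested and −0.47 over all tested genes. By median the members as a whole were thus near the background, and their share of calls in each direction was close to it. Of the 65 members tested, all Rtcb KO values lay above all WT values for 8 (10.2% of all tested genes) and below them for 38 (57.5%).

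Most of the lower calls depend on the scaling. The digits of the values show that each genotype was multiplied by a factor of its own, with a ratio of Rtcb KO to WT of 0.667 (−0.58 on the log2 scale). With both factors removed, 24 members were higher and 17 lower, against 25.7% and 18% of all tested genes, and the median was 0.12 over members and 0.043 over all genes. Members called the same way under both scalings number 5 higher (9.23% of all tested genes) and 17 lower (18% of all tested genes). Removal of the factors raises every ratio of Rtcb KO to WT alike. A higher call is thus nearly bound to stay (1110 of 1118 over all tested genes), and only lower calls can readily be lost. The same members were also called with every library rescaled to an equal total, which shifts ratios the same way by less and so adds little. That rescaling gave 14 members higher and 22 lower (19% and 25.8% of all tested genes), and median-ratio rescaling gave 18 higher and 19 lower (22.8% and 21.7%). Below, rose and fell refer to calls as deposited, and each is followed by what the removal of the factors does to it. FPKM and folds are as deposited unless stated. Folds are ratios of group means; the log2 values come from FPKM with 1 added, so those of low genes are too small.

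**Figure D1:**
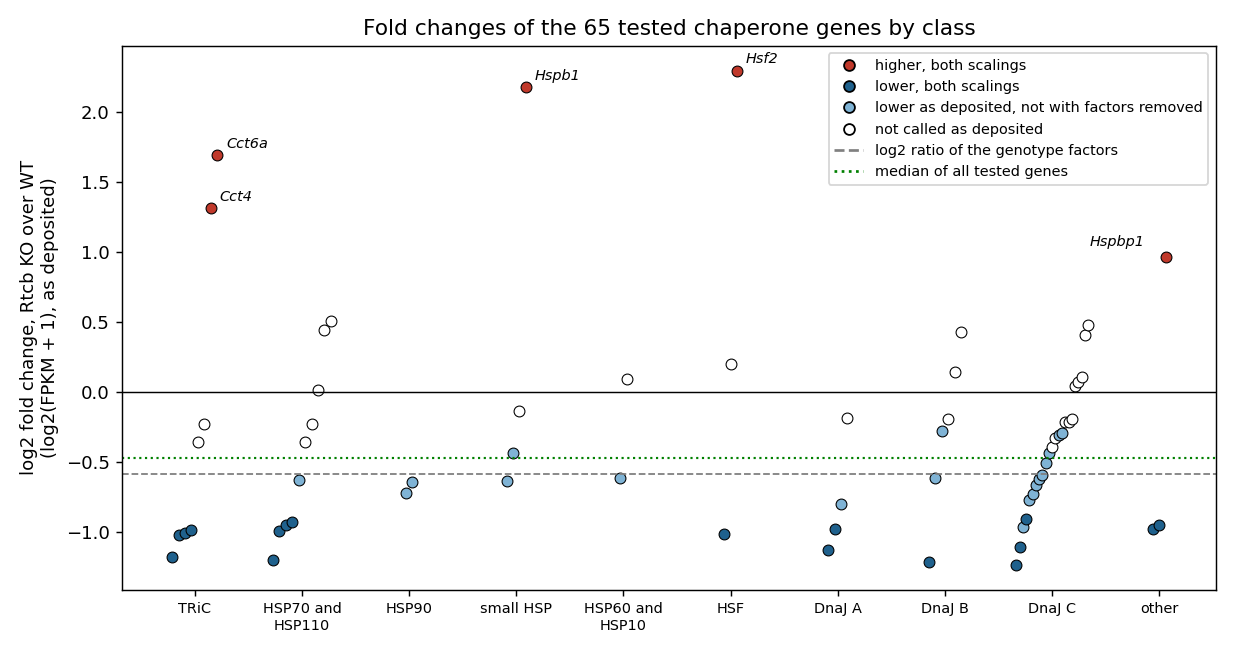
Log2 fold change (Rtcb KO over WT, log2(FPKM + 1), as deposited) of each of the 65 tested members, one point per gene, by class. Red and dark blue points were called the same way with the genotype factors removed (5 higher, 17 lower), light blue ones were lower as deposited but not with the factors removed, and white ones were not called as deposited; the dashed line is the log2 ratio of the genotype factors (−0.58) and the dotted line the median of all tested genes (−0.47). Hsf2, Hspb1, Cct6a, Cct4 and Hspbp1 stand above all other tested members.

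The transcription start regions of members that carry the contrast show which of them hold the letters of a heat shock element, the site that heat shock factors bind. The element is built from GAA units in alternating direction, and its shortest forms, GAANNTTC and TTCNNGAA, each read the same on both strands. The 150 bases before the first listed gene start are printed, 5′ to 3′ on the gene's strand, from RefSeq on build GRCm38.p6, with every match to either form in capitals. Of genes that rose they are those of Hspb1 at chr5:135887769-135887918 on the plus strand, Hsf2 at chr10:57486235-57486384 on the plus strand and Cct6a at chr5:129787206-129787355 on the plus strand. Of a gene that fell, Cct5 lies at chr15:31601847-31601996 on the minus strand. Of genes not called as deposited, Hsph1 lies at chr5:149636337-149636486 on the minus strand and Hspe1 at chr1:55087998-55088147 on the plus strand.
Hspb1: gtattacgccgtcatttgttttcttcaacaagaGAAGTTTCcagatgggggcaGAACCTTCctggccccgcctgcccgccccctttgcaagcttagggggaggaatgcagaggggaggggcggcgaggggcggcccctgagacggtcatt
Hsf2: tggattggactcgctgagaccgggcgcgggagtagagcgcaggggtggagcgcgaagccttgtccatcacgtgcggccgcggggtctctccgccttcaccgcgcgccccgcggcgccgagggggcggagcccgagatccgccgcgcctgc
Cct6a: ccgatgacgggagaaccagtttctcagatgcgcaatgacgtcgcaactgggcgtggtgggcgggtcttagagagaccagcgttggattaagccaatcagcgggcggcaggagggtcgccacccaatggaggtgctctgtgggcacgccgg
Cct5: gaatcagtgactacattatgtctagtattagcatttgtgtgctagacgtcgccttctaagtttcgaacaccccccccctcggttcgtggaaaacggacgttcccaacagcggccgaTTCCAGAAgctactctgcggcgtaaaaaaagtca
Hsph1: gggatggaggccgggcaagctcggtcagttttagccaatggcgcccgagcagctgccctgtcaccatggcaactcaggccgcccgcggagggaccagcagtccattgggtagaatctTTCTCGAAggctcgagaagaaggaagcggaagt
Hspe1: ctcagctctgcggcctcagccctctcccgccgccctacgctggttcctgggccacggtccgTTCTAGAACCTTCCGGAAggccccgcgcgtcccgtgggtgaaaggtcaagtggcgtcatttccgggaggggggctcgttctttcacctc
Hspb1 had 2 matches, which begin 117 and 97 bases before the start. Hspe1 had 3 overlapping matches that begin 89, 84 and 79 bases before it, in the stretch that separates it from Hspd1, which is transcribed the other way. Cct5 had 1 match at 34 bases and Hsph1 1 at 33 bases, while the windows of Hsf2 and Cct6a held neither form. In the 250 bases before the listed starts, 18 of the 68 members with a window held one (26.5%), against 14.5% of all 27025 genes in the table. A longer form with 3 such units in alternating direction, each 2 bases apart, was found in 3 members, Dnajb6, Hspd1 and Hspe1 (4.41%, against 0.514% of all genes). The matches of Hspd1 and Hspe1 may be the same letters between the 2 genes, counted for each, which was not checked. By call, 1 of 4 members that rose, 8 of 29 that fell and 6 of 19 tested members that were not called held a shorter form. A match is a description of the letters, not a bound site.

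The genes of the 8 tested TRiC subunits did not move together. Cct8, Cct5, Tcp1 and Cct2 fell, Cct4 and Cct6a rose, and Cct3 and Cct7 were not called. Of all tested genes 54% were lower, which the TRiC falls are near, and 9.29% were higher. Cct6a, which encodes the zeta subunit, was at 40.7, 16.3 and 31.3 FPKM in Rtcb KO, against 10.8, 9.69 and 4.41 FPKM in WT. All Rtcb KO libraries lay above all WT libraries, library 2 lowest among them (3.54-fold, log2 fold change 1.70 with SE 0.38, limma adjusted p = 0.00552). Psph, whose exons overlap those of Cct6a on the other strand, was at 25.1, 16 and 24.5 FPKM in Rtcb KO, against 5.14, 3.22 and 4.41 FPKM in WT. It too was higher in every Rtcb KO library, and its part in the Cct6a values was not tested. Cct4, of the delta subunit, was at 253, 125 and 183 FPKM in Rtcb KO, against 93.7, 73.2 and 52.7 FPKM in WT. Again the groups did not overlap and Rtcb KO 2 was the lowest of its group (2.55-fold, log2 fold change 1.32 with SE 0.28, limma adjusted p = 0.00396). Without Rtcb KO library 2 the folds were 4.33 for Cct6a and 2.97 for Cct4.

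Cct5, of the epsilon subunit, had the highest level of the 8 subunits in every library, at 403, 438 and 391 FPKM in Rtcb KO, against 842, 822 and 834 FPKM in WT. The spread within each genotype was small beside the difference, a 2.03-fold fall (log2 fold change −1.02 with SE 0.081, limma adjusted p = 0.000162). Cct8, of the theta subunit, was at 129, 145 and 135 FPKM in Rtcb KO, against 316, 303 and 306 FPKM in WT. It fell 2.26-fold, the furthest of the 8 (log2 fold change −1.17 with SE 0.083, limma adjusted p = 0.000162). Tcp1, of the alpha subunit, averaged 92.5 ± 6.05 FPKM in Rtcb KO and 187 ± 21.2 FPKM in WT (log2 fold change −1.0, limma adjusted p = 0.000237; SD, n = 3 each, here and below). Cct2, of the beta subunit, averaged 113 ± 4.96 FPKM in Rtcb KO and 225 ± 8.0 FPKM in WT (log2 fold change −0.98, limma adjusted p = 0.000162). These 4 falls were also called with the genotype factors removed, with log2 fold changes from −0.59 for Cct8 to −0.40 for Cct2. Both rises, which the removal can only enlarge, were called too, at 1.89 for Cct4 and 2.13 for Cct6a. Over all tested genes, 18% were called lower and 9.23% higher under both scalings. Cct3, of the gamma subunit, was at 332, 255 and 293 FPKM in Rtcb KO, against 363, 331 and 330.4 FPKM in WT, and the groups overlapped (log2 fold change −0.23, limma adjusted p = 0.109). With the factors removed it was higher (log2 fold change 0.36, limma adjusted p = 0.0324). Cct7, of the eta subunit, averaged 53.1 ± 10.3 FPKM in Rtcb KO and 67.5 ± 6.26 FPKM in WT and was called under neither scaling (log2 fold change −0.35, limma adjusted p = 0.0774 as deposited). Cct6b, a paralog of Cct6a best known from testis, stayed under 1 FPKM in every library (0.147 ± 0.0805 FPKM in Rtcb KO and 0.472 ± 0.14 FPKM in WT), and Cct8l1 was listed at 0.

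**Figure D2:**
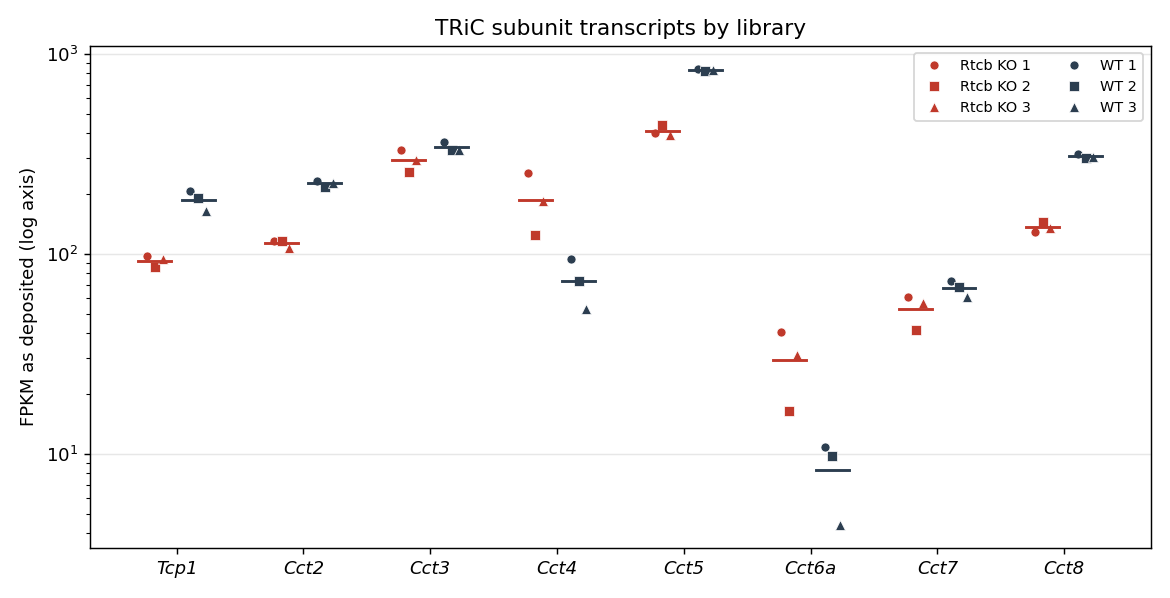
FPKM as deposited (log axis) of the 8 tested TRiC subunit genes, one symbol per library, with Rtcb KO left of WT and lines at the group means. Cct4 and Cct6a lie higher in all Rtcb KO libraries, while Tcp1, Cct2, Cct5 and Cct8 lie lower in all of them.

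Shares within the TRiC pool do not depend on any factor common to a library. Cct5 made up 31.4 ± 3.98% in Rtcb KO and 40.8 ± 1.38% in WT of the summed FPKM of the 8 subunits (SD, n = 3 each). Cct8 made up 10.4 ± 1.42% in Rtcb KO and 15.1 ± 0.335% in WT. Cct2 made up 8.64 ± 0.75% in Rtcb KO and 11 ± 0.363% in WT, and Tcp1 7.04 ± 0.26% in Rtcb KO and 9.13 ± 0.732% in WT. For all 4 the genotypes did not overlap. Cct4 made up 14 ± 3.72% in Rtcb KO and 3.56 ± 0.861% in WT, a 3.93-fold larger share. Cct6a made up 2.2 ± 0.781% in Rtcb KO and 0.404 ± 0.157% in WT, 5.45-fold larger. Cct3 took 22.2 ± 1.22% in Rtcb KO and 16.7 ± 0.283% in WT, without overlap. Cct7 took 4.02 ± 0.554% in Rtcb KO and 3.3 ± 0.198% in WT, with overlap. The range of levels was narrower in Rtcb KO. The highest subunit, Cct5, exceeded the lowest, Cct6a, by 9.91-fold, 27-fold and 12.5-fold in the Rtcb KO libraries, against 77.8-fold, 84.8-fold and 189-fold in the WT libraries. These shares were computed after the levels were known and carry no test.

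**Figure D3:**
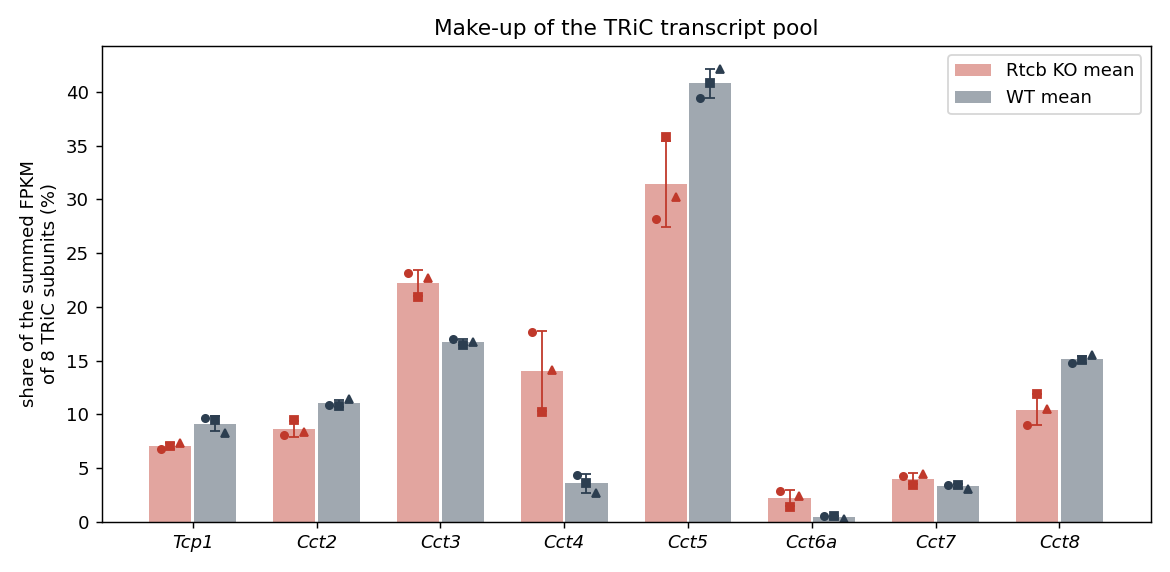
Share (%) of each gene in the summed FPKM of 8 TRiC subunit genes; bars are means, whiskers SD (n = 3) and symbols single libraries, Rtcb KO left of WT. Cct4 makes up 14.0 ± 3.72% in Rtcb KO against 3.56 ± 0.861% in WT, and Cct5 has the largest share in both.

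Of the heat shock factor genes, Hsf2 rose and Hsf1 fell. Hsf2, which encodes a factor known for roles in gametogenesis and brain development, was at 73.5, 24.9 and 53.2 FPKM in Rtcb KO, against 11.5, 14 and 3.7 FPKM in WT. The groups did not overlap, and the lowest Rtcb KO value, in library 2, was well under those of the other two. Its rise was the largest of any tested member on the log2 scale (5.2-fold, log2 fold change 2.30 with SE 0.50, limma adjusted p = 0.00453), 6.52-fold without library 2. Hsf1 was at 56.4, 59.6 and 57.7 FPKM in Rtcb KO, against 130.4, 117 and 106 FPKM in WT. It fell 2.04-fold (log2 fold change −1.01 with SE 0.10, limma adjusted p = 0.00019). Once the factors were removed the fall of Hsf1 was still called, at a log2 fold change of −0.43. Hsf2 was then at 2.73, a rise that the removal could only enlarge. The ratio of Hsf2 to Hsf1 within a library was 1.3, 0.418 and 0.921 in Rtcb KO, against 0.0881, 0.12 and 0.0348 in WT (difference 3.31 on the log2 scale, SE 0.66). Hsf2 thus exceeded Hsf1 in Rtcb KO library 1, while it was far below Hsf1 in every WT library. Hsf5, of a factor known from germ cells, averaged 37.3 ± 1.3 FPKM in Rtcb KO and 32.3 ± 1.76 FPKM in WT. It was not called as deposited (log2 fold change 0.20, limma adjusted p = 0.102) but was higher with the factors removed (log2 fold change 0.76, limma adjusted p = 0.00136). Hsf3 was listed at 0 in all libraries and Hsf4 in all but one.

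Among small heat shock proteins, Hspb1 rose. Hspb1 encodes HSP25 (human HSP27), which binds unfolded proteins and affects actin filaments. It was at 256, 116 and 257 FPKM in Rtcb KO, against 40.2, 51.1 and 38.1 FPKM in WT. Every Rtcb KO value lay well above every WT value, with library 2 lowest (4.87-fold, log2 fold change 2.18 with SE 0.30, limma adjusted p = 0.000500). With the factors removed the rise was 7.3-fold (log2 fold change 2.73, limma adjusted p = 0.000995), and without library 2 it was 5.96-fold as deposited. The granulosa and cumulus marker sum lay between 46.9 and 59 FPKM in Rtcb KO and between 59.2 and 65.8 FPKM in WT as deposited. Once the factors were removed it lay between 35.2 and 44.3 in Rtcb KO and between 29.6 and 32.9 in WT, so its direction turns with the scaling, and its part in the Hspb1 result was not tested. Hspb11, whose product IFT25 works in ciliary transport in spite of its symbol, averaged 97 ± 12.7 FPKM in Rtcb KO and 132 ± 23.2 FPKM in WT. Hspb3, best known from muscle, averaged 0.582 ± 0.257 FPKM in Rtcb KO and 1.49 ± 0.666 FPKM in WT. Both fell as deposited, but neither call held with the factors removed. Hspb11 lost its call without 4 of the 6 libraries (adjusted p up to 0.129, without Rtcb KO 3) and Hspb3 without 3 (up to 0.112, without Rtcb KO 1). Hspb6 averaged 8.59 ± 0.96 FPKM in Rtcb KO and 9.49 ± 0.457 FPKM in WT and was not called as deposited (log2 fold change −0.13, limma adjusted p = 0.411), but was higher with the factors removed (log2 fold change 0.37, limma adjusted p = 0.0482). Hspb2, Hspb7, Hspb8 and Hspb9 were at or near 0.

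In the HSP70 and HSP110 families, 10 of 13 members were tested. By limma none rose and 5 fell as deposited (1 higher at an unadjusted p under 0.05, Hspa13; 1 called higher without Rtcb KO 2 and 1 without WT 1), while 2 were higher and 4 lower with the factors removed. With 54% of all tested genes lower as deposited, 5 of 10 is near the background, and with the factors removed 25.7% of all genes were higher and 18% lower. Hspa8, the constitutive HSP70 of the cytosol and the most abundant of the family here, was at 578, 561 and 624 FPKM in Rtcb KO, against 1257, 1081 and 1066 FPKM in WT. It fell 1.93-fold without overlap (log2 fold change −0.94 with SE 0.096, limma adjusted p = 0.000202; log2 fold change −0.36, limma adjusted p = 0.0189 with the factors removed). The stress-inducible genes Hspa1a and Hspa1b, near-identical copies whose reads cannot be assigned with certainty, were low in both genotypes. Hspa1b was at 1.91, 1.55 and 1.73 FPKM in Rtcb KO, against 1.08, 1.75 and 2.41 FPKM in WT, with overlap (log2 fold change 0.019, limma adjusted p = 0.943), and Hspa1a, below the filter, was at 0.213, 0.429 and 0.409 FPKM in Rtcb KO, against 0.854, 1.05 and 1.34 FPKM in WT. Hspa14, whose human product pairs with that of DNAJC2 on the ribosome, fell 1.91-fold (64.9 ± 5.68 FPKM in Rtcb KO and 124 ± 8.08 FPKM in WT; log2 fold change −0.93, limma adjusted p = 0.000241), a call that held with the factors removed. Hspa2, known for its role in male meiosis, averaged 1.79 ± 0.386 FPKM in Rtcb KO and 5.36 ± 0.0244 FPKM in WT (log2 fold change −1.20, limma adjusted p = 0.000459). Hspa12a, a distant relative, averaged 4.17 ± 0.715 FPKM in Rtcb KO and 9.27 ± 1.15 FPKM in WT (log2 fold change −0.99, limma adjusted p = 0.00118). Both falls held with the factors removed.

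Hsph1 and Hspa4, of the HSP110 family of exchange factors, were not called as deposited. Hsph1, of HSP110, was at 136, 89.4 and 133 FPKM in Rtcb KO, against 116, 87.5 and 62.5 FPKM in WT, with overlap between the genotypes (log2 fold change 0.44, limma adjusted p = 0.137). It was higher with the factors removed (log2 fold change 1.02, limma adjusted p = 0.0113). Hspa4, of the same family, averaged 70.7 ± 12.9 FPKM in Rtcb KO and 82.5 ± 11.1 FPKM in WT and was called under neither scaling (log2 fold change −0.23, limma adjusted p = 0.236 as deposited). Its paralog Hspa4l, known from testis, averaged 19.9 ± 1.16 FPKM in Rtcb KO and 31.4 ± 4.01 FPKM in WT and fell as deposited (log2 fold change −0.63, limma adjusted p = 0.00287; log2 fold change −0.065, limma adjusted p = 0.689 with the factors removed). The Hspa4l to Hspa4 ratio was 0.263, 0.351 and 0.248 in Rtcb KO, against 0.378, 0.38 and 0.384 in WT. The mitochondrial HSP70 gene Hspa9 averaged 134 ± 19.2 FPKM in Rtcb KO and 172 ± 22.7 FPKM in WT (log2 fold change −0.36, limma adjusted p = 0.0524). Hspa13, of an HSP70 relative in microsomes, averaged 4.58 ± 1.19 FPKM in Rtcb KO and 2.89 ± 0.563 FPKM in WT (log2 fold change 0.51, limma adjusted p = 0.0556, and log2 fold change 0.85, limma adjusted p = 0.00753 with the factors removed). Hspa1l averaged 0.116 ± 0.0615 FPKM in Rtcb KO and 0.129 ± 0.0433 FPKM in WT, and Hspa12b was listed at 0.

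Both cytosolic HSP90 genes fell as deposited and neither with the factors removed. Hsp90aa1, of the inducible form and the most abundant member of all, was at 1590.3, 1503 and 1533 FPKM in Rtcb KO, against 2405, 2456 and 2766 FPKM in WT (log2 fold change −0.72 with SE 0.090, limma adjusted p = 0.000361). Hsp90ab1, of the constitutive form, was at 299, 237 and 298 FPKM in Rtcb KO, against 431, 436 and 429.9 FPKM in WT (log2 fold change −0.64 with SE 0.11, limma adjusted p = 0.00129). Neither gene's groups overlapped, but with the factors removed the log2 fold changes were −0.13 (limma adjusted p = 0.26) and −0.059 (limma adjusted p = 0.679). The ratio of Hsp90aa1 to Hsp90ab1 was 5.31, 6.34 and 5.14 in Rtcb KO, against 5.58, 5.63 and 6.43 in WT, and its ranges overlapped.

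Hspd1 and Hspe1 encode HSP60 and HSP10, the ring and the lid of the mitochondrial chaperonin, from neighbouring starts in opposite directions. Hspe1 was at 774, 732 and 833 FPKM in Rtcb KO, against 632, 749.6 and 822 FPKM in WT and was not called (log2 fold change 0.093, limma adjusted p = 0.494). Hspd1 was at 71.1, 55.2 and 67.1 FPKM in Rtcb KO, against 104, 106 and 86.1 FPKM in WT, without overlap, and fell as deposited (log2 fold change −0.61 with SE 0.13, limma adjusted p = 0.00416). With the factors removed Hspe1 was higher (log2 fold change 0.68, limma adjusted p = 0.00322) and Hspd1 was not called (log2 fold change −0.032, limma adjusted p = 0.859). The ratio of Hspd1 to Hspe1 within a library was 0.0918, 0.0753 and 0.0805 in Rtcb KO, against 0.164, 0.142 and 0.105 in WT, lower in every Rtcb KO library (difference −0.70 on the log2 scale, SE 0.21). GENCODE vM21 names 5 pseudogenes after Hspd1 and 6 after Hspe1, so reads may be shared with copies.

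**Figure D4:**
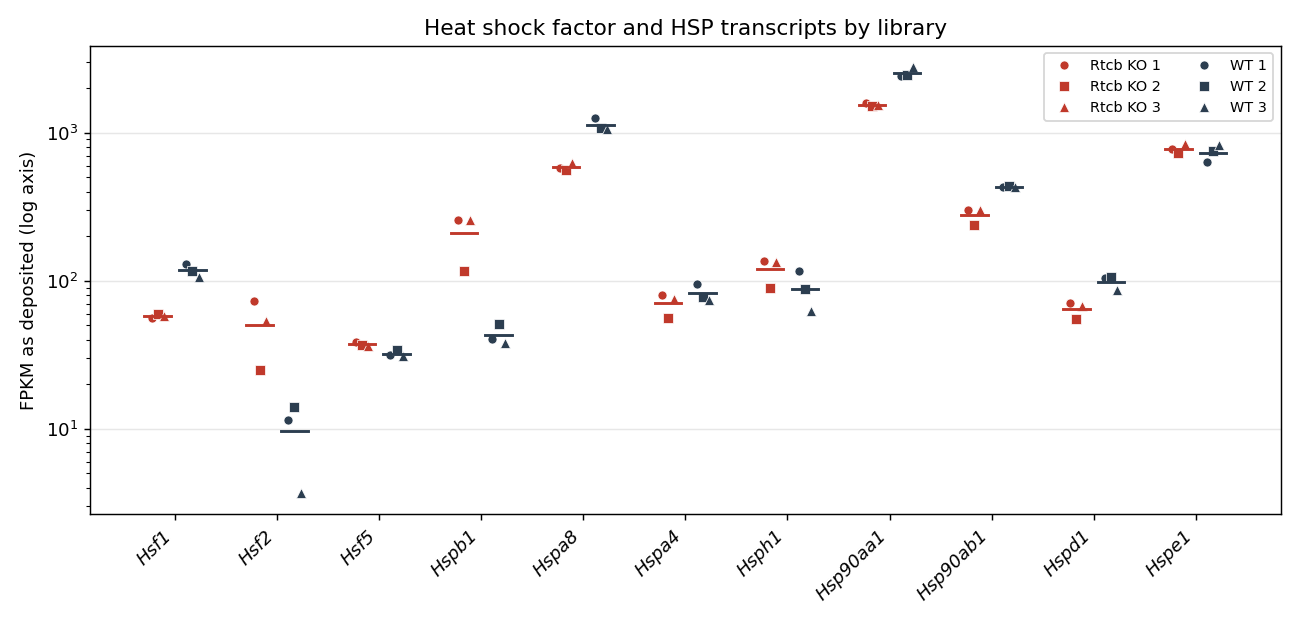
FPKM as deposited (log axis) of heat shock factor and heat shock protein genes, one symbol per library, Rtcb KO left of WT, lines at group means. Hsf2, Hspb1 and narrowly Hsf5 lie higher and Hsf1, Hspa8, Hsp90aa1, Hsp90ab1 and Hspd1 lower in all Rtcb KO libraries; the genotypes overlap for Hspa4, Hsph1 and Hspe1.

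DnaJ genes make up 33 of the 65 tested members, and as deposited their lower calls were near the share over all genes. Of 33 tested of 42, none rose and 19 fell as deposited, with 13 higher and 6 lower once the factors were removed. The shares over all tested genes were 54% lower and 9.29% higher as deposited, and 25.7% higher and 18% lower with the factors removed. At an unadjusted limma p under 0.05, 2 were higher (Dnajc5 and Dnajc28); without Rtcb KO 2 there were 2 called rises, and 1 each without Rtcb KO 3 and without WT 1. The median was −0.39 as deposited, against −0.47 over all tested genes. Among class A genes, whose products carry a zinc-binding domain and serve HSP70 in general folding, Dnaja1 was at 275, 242 and 276 FPKM in Rtcb KO, against 285, 294 and 323 FPKM in WT. Its Rtcb KO values all lay below the WT values but by less than the test asks (log2 fold change −0.19, limma adjusted p = 0.115), and with the factors removed it was higher (log2 fold change 0.40, limma adjusted p = 0.0113). Dnaja2 fell 1.75-fold (153 ± 8.31 FPKM in Rtcb KO and 266 ± 26.8 FPKM in WT; log2 fold change −0.80, limma adjusted p = 0.000377), and was not called with the factors removed (log2 fold change −0.21, limma adjusted p = 0.116). Dnaja3, of the mitochondrial form, was at 36.9, 35.6 and 32.7 FPKM in Rtcb KO, against 92.8, 76.6 and 66 FPKM in WT (log2 fold change −1.13 with SE 0.14, limma adjusted p = 0.000319). Dnaja4 averaged 12.9 ± 0.221 FPKM in Rtcb KO and 26.3 ± 1.19 FPKM in WT (log2 fold change −0.97, limma adjusted p = 0.000235). The falls of Dnaja3 and Dnaja4 held with the factors removed. The Dnaja2 to Dnaja1 ratio, which no scaling changes, was 0.569, 0.59 and 0.574 in Rtcb KO, against 1.03, 0.902 and 0.743 in WT.

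Class B held the abundant genes Dnajb6, Dnajb4 and Dnajb1. Dnajb6, whose product suppresses protein aggregation, was at 658, 601 and 664 FPKM in Rtcb KO, against 957, 1056 and 933 FPKM in WT and fell 1.53-fold (log2 fold change −0.61, limma adjusted p = 0.00066), and was not called with the factors removed (log2 fold change −0.03, limma adjusted p = 0.809). Dnajb1, of the main stress-inducible partner of HSP70, was at 436, 359.7 and 469 FPKM in Rtcb KO, against 406, 398 and 338 FPKM in WT, with overlap (log2 fold change 0.14, limma adjusted p = 0.335), and was higher with the factors removed (log2 fold change 0.73, limma adjusted p = 0.00337). Dnajb4 averaged 387 ± 16.6 FPKM in Rtcb KO and 468 ± 9.71 FPKM in WT and turned with the scaling: it fell as deposited (log2 fold change −0.27, limma adjusted p = 0.0153, lost without Rtcb KO 3 at adjusted p = 0.0574) and was higher with the factors removed (log2 fold change 0.31, limma adjusted p = 0.0147). Dnajb2, of a form that passes clients to the proteasome, was at 13.6, 12 and 17.5 FPKM in Rtcb KO, against 41.2, 38 and 25.5 FPKM in WT. It fell 2.42-fold (log2 fold change −1.21 with SE 0.21, limma adjusted p = 0.00143), also with the factors removed (log2 fold change −0.63, limma adjusted p = 0.0356). Dnajb12 (22 ± 1.95 FPKM in Rtcb KO and 25.2 ± 2.0 FPKM in WT) and Dnajb14 (9.04 ± 1.71 FPKM in Rtcb KO and 6.47 ± 1.41 FPKM in WT), both of ER membrane proteins, were not called as deposited. Both were higher with the factors removed (log2 fold change 0.36, limma adjusted p = 0.0357 for Dnajb12; log2 fold change 0.88, limma adjusted p = 0.00748 for Dnajb14).

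Class C proteins share only the J domain and work in many places. On the log2(FPKM + 1) scale as deposited, the largest fall of a tested member was that of Dnajc13, of an endosomal protein, at 8.16, 10.2 and 8.04 FPKM in Rtcb KO, against 19.3, 19.7 and 27.7 FPKM in WT (log2 fold change −1.23 with SE 0.17, limma adjusted p = 0.000578; log2 fold change −0.66, limma adjusted p = 0.0154 with the factors removed). By the ratio of means Hspa2 fell further (2.99-fold, against 2.52-fold for Dnajc13), as did Hspb3 (2.55-fold). Dnajc5g, a paralog of the cysteine string protein gene Dnajc5, was at 8.94, 7.23 and 7.87 FPKM in Rtcb KO, against 15.1, 19.8 and 20.6 FPKM in WT and fell 2.31-fold (log2 fold change −1.11, limma adjusted p = 0.000591), also with the factors removed. Dnajc5 itself averaged 28 ± 5.12 FPKM in Rtcb KO and 19.8 ± 4.27 FPKM in WT (log2 fold change 0.48, limma adjusted p = 0.0541), and was higher with the factors removed (log2 fold change 1.01, limma adjusted p = 0.00422). Dnajc10, of an ER disulfide reductase, averaged 14.3 ± 1.42 FPKM in Rtcb KO and 27.6 ± 1.34 FPKM in WT and fell under both scalings (log2 fold change −0.90, limma adjusted p = 0.000442; log2 fold change −0.33, limma adjusted p = 0.0482 with the factors removed). Dnajc11, of the mitochondrial outer membrane, averaged 248 ± 11.1 FPKM in Rtcb KO and 409 ± 21.5 FPKM in WT (log2 fold change −0.72, limma adjusted p = 0.000278). Dnajc8, which associates with the spliceosome, averaged 326 ± 43 FPKM in Rtcb KO and 553 ± 64.5 FPKM in WT (log2 fold change −0.76, limma adjusted p = 0.00119). Dnajc7, which carries TPR repeats and binds both HSP70 and HSP90, averaged 61 ± 3.47 FPKM in Rtcb KO and 121 ± 25.8 FPKM in WT (log2 fold change −0.96, limma adjusted p = 0.000942). These 3 falls were also called with equal totals but not with the factors removed. Dnajc9, of a histone chaperone, averaged 266 ± 36.5 FPKM in Rtcb KO and 252 ± 27.8 FPKM in WT (log2 fold change 0.071, limma adjusted p = 0.647). Dnajc2, the partner gene of Hspa14, averaged 164 ± 1.48 FPKM in Rtcb KO and 190.3 ± 15.7 FPKM in WT (log2 fold change −0.21, limma adjusted p = 0.0699). Both were higher with the factors removed. Of the remaining class C genes, Dnajc1, Dnajc4, Dnajc14, Dnajc15, Dnajc17, Dnajc18 and Dnajc30 fell as deposited, and the calls of Dnajc14, Dnajc18 and Dnajc30 were lost without 2, 3 and 3 single libraries. With the factors removed Dnajc14 was higher and the other 6 were not called.

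**Figure D5:**
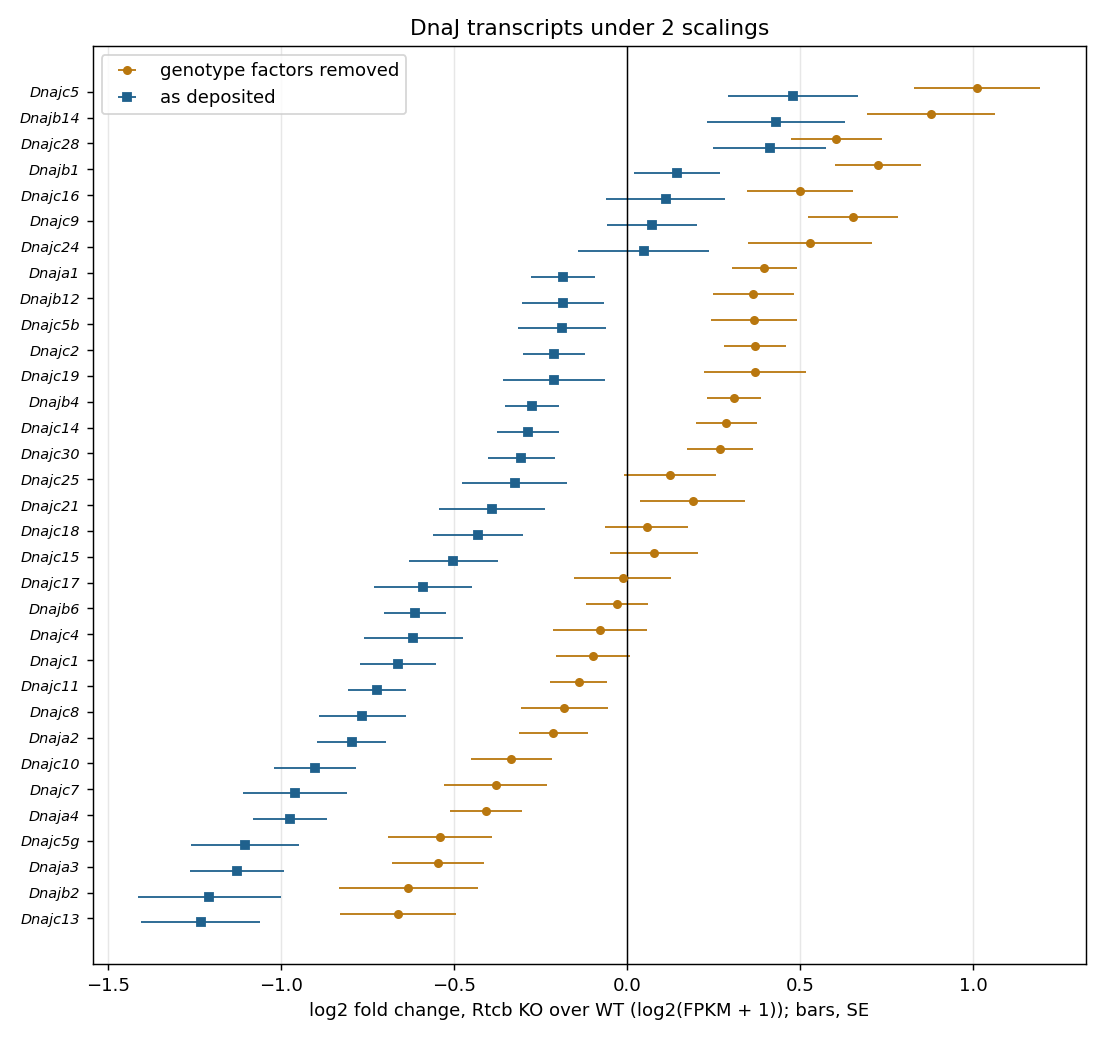
Log2 fold change (Rtcb KO over WT, log2(FPKM + 1)) with SE of the 33 tested DnaJ genes, with the genotype factors removed (circles) and as deposited (squares), in the order of the deposited values. The order of genes is nearly kept while most values shift by about the factor ratio; Dnajc13, Dnajb2, Dnaja3 and Dnajc5g lie lowest in both.

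By place in the cell, a grouping made after values were seen, 0 of 8 tested mitochondrial members rose (also 0 higher at an unadjusted limma p under 0.05) and 5 fell as deposited, with 1 higher and 1 lower once the factors were removed. Of 9 ER members, 0 rose (1 at an unadjusted limma p under 0.05) and 4 fell as deposited, with 5 higher and 1 lower once they were removed. The lower counts as deposited are near the 54% of all tested genes, where 9.29% were higher. With the factors removed, 25.7% of all tested genes were higher and 18% lower. The 3 remaining symbols are not chaperones of these families. Hspbp1, of a nucleotide exchange factor of HSP70, was at 5.1, 2.29 and 4.13 FPKM in Rtcb KO, against 1.8, 2.23 and 0.521 FPKM in WT and rose (log2 fold change 0.97, limma adjusted p = 0.0335), but lost its call without 4 single libraries (up to 0.106, without Rtcb KO 1); it is named after its values were seen. Hsf2bp, which in mouse germ cells helps bring BRCA2 to meiotic recombination sites, averaged 45.1 ± 3.6 FPKM in Rtcb KO and 87.9 ± 2.1 FPKM in WT (log2 fold change −0.95, limma adjusted p = 0.000191). Hspbap1 averaged 16.7 ± 1.11 FPKM in Rtcb KO and 33.8 ± 1.42 FPKM in WT (log2 fold change −0.98, limma adjusted p = 0.000238). Both falls held with the factors removed. Hsf2 and Hsf2bp therefore moved in opposite directions under both scalings.

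The 20 members below the filter had at most 1.47 FPKM in any library, and 7 of them were listed at 0 throughout. Dnajc12 held that highest value, at 1.09, 0.534 and 1.47 FPKM in Rtcb KO, against 0.319, 0 and 0 FPKM in WT. Besides those named above they are Dnajb3, Dnajb5, Dnajb7, Dnajb8, Dnajb13, Dnajc6, Dnajc22 and Dnajc27. The inducible small HSP gene Hspb8 and the HSP70 genes Hspa1a and Hspa1l thus had low levels in both genotypes.

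Summed over its members, each class can be set against the library. TRiC summed to 1432, 1222 and 1292 FPKM in Rtcb KO, against 2137, 2015 and 1978 FPKM in WT. HSP70 and HSP110 summed to 1051, 923 and 1055 FPKM in Rtcb KO, against 1835, 1593 and 1533 FPKM in WT. HSP90 summed to 1889.8, 1740.1 and 1831 FPKM in Rtcb KO, against 2836, 2892 and 3196 FPKM in WT. The Rtcb KO to WT ratios of the means were 0.644, 0.611 and 0.612. DnaJ genes summed to 3868, 3751 and 3943 FPKM in Rtcb KO, against 5006, 5342 and 5190.4 FPKM in WT, a ratio of 0.744. The small HSP symbols had a higher sum in Rtcb KO, at 362, 236 and 350.1 FPKM, against 156, 207 and 196 FPKM in WT. Their ratio of 1.7 rests on Hspb1. That sum includes Hspb11, of ciliary transport, at 97 ± 12.7 FPKM in Rtcb KO and 132 ± 23.2 FPKM in WT. Hspb11 is thus most of the WT sum, and the ratio is not one of small heat shock proteins alone. With the factors removed the ratios were 0.966 for TRiC, 0.916 for HSP70 and HSP110, 0.918 for HSP90, 1.12 for DnaJ and 2.54 for small HSP genes. Of the summed FPKM of a library, DnaJ genes took 0.397 ± 0.0189% in Rtcb KO and 0.395 ± 0.01% in WT. TRiC took 0.136 ± 0.0149% in Rtcb KO and 0.156 ± 0.0112% in WT. In the same order, HSP70 and HSP110 took 0.104 ± 0.0103% and 0.126 ± 0.0162%, and HSP90 0.188 ± 0.0131% and 0.227 ± 0.00932%. The small HSP symbols took 0.0327 ± 0.00792% in Rtcb KO and 0.0142 ± 0.00171% in WT. All 85 members together made up 0.966 ± 0.0724% of the summed FPKM of a library in Rtcb KO and 1.00 ± 0.0207% in WT (SD, n = 3 each), a difference smaller than the spread in Rtcb KO.

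Of 8 ratios between pairs of related genes within a library, 6 did not overlap between the genotypes on the log2(FPKM + 1) scale. Besides the pairs of Hsf2 to Hsf1, Hspa4l to Hspa4, Dnaja2 to Dnaja1 and Hspd1 to Hspe1, these were Dnajb1 to Dnaja1, at 1.58, 1.48 and 1.7 in Rtcb KO, against 1.43, 1.35 and 1.05 in WT, and Cct6b to Cct6a, which Cct6b enters at under 1 FPKM. By exact permutation test, two-sided, each of the 6 gave p = 0.1, the smallest that 3 against 3 libraries allows (Benjamini-Hochberg adjusted over the 8 pairs, 0.133), so none can pass a threshold of 0.05. Hsp90aa1 to Hsp90ab1 (exact permutation p = 0.5) and Hspa2 to Hspa8 (exact permutation p = 0.2) overlapped on that scale. Without the added 1, the Hspa2 to Hspa8 ratio was 0.0036, 0.00241 and 0.00311 in Rtcb KO, against 0.00428, 0.00493 and 0.00503 in WT. Those values did not overlap. How often other pairs of genes do not overlap was not computed, so the count of 6 has no background beside it.

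Genes that work beside these chaperones were counted from lists in the same fit. Their counts stand beside 54% of all tested genes lower and 9.29% higher as deposited, and 25.7% higher and 18% lower with the factors removed. Of 5 tested prefoldin genes, whose complex hands actin and tubulin to TRiC, 0 rose (also 0 higher at an unadjusted limma p under 0.05) and 4 fell, and with the factors removed 2 were higher and none lower. Vbp1 averaged 127 ± 9.86 FPKM in Rtcb KO and 194 ± 29.3 FPKM in WT (log2 fold change −0.60, limma adjusted p = 0.00383). Pfdn4 averaged 1543 ± 166 FPKM in Rtcb KO and 2185 ± 381 FPKM in WT (log2 fold change −0.49, limma adjusted p = 0.0191, lost without 4 single libraries, up to 0.0792 without WT 2). Of 3 TRiC cofactors, Pdcl, a phosducin-like protein that works with TRiC in the assembly of G protein beta subunits, rose. It was at 49, 26.7 and 38.4 FPKM in Rtcb KO, against 14.2, 13.6 and 13.2 FPKM in WT, without overlap (log2 fold change 1.37 with SE 0.20, limma adjusted p = 0.000721; log2 fold change 1.87, limma adjusted p = 0.000966 with the factors removed). Its relative Pdcl3 averaged 127 ± 13.8 FPKM in Rtcb KO and 248 ± 36.4 FPKM in WT (log2 fold change −0.95, limma adjusted p = 0.000557). Txndc9 averaged 235 ± 26 FPKM in Rtcb KO and 340.2 ± 37 FPKM in WT (log2 fold change −0.53, limma adjusted p = 0.00457). Both fell as deposited. Neither was called with the factors removed (log2 fold change −0.37, limma adjusted p = 0.052 for Pdcl3), while Pdcl3 was called lower with equal totals and median-ratio rescaling.

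Of 16 tested HSP90 co-chaperones, 1 rose and 8 fell, the falls near the 54% of all tested genes, and with the factors removed 7 were higher and 1 lower. Fkbp4, an immunophilin of steroid receptor complexes, averaged 46.5 ± 11.9 FPKM in Rtcb KO and 27.5 ± 5.29 FPKM in WT (log2 fold change 0.72, limma adjusted p = 0.0192; log2 fold change 1.26, limma adjusted p = 0.00313 with the factors removed). Its call as deposited was lost without 4 single libraries (limma adjusted p up to 0.0697, without Rtcb KO 3). Ahsa1, which stimulates the ATPase of HSP90, was at 246, 231 and 244 FPKM in Rtcb KO, against 502, 540.5 and 462 FPKM in WT, and its fall was the one that held under both scalings (log2 fold change −1.05 with SE 0.089, limma adjusted p = 0.000162). Ttc4 averaged 48.3 ± 1.47 FPKM in Rtcb KO and 88.6 ± 8.19 FPKM in WT (log2 fold change −0.86, limma adjusted p = 0.000285). It narrowly missed the threshold with the factors removed (log2 fold change −0.28, limma adjusted p = 0.0502). Of 9 tested HSP70 co-chaperones, 2 rose and 4 fell, with 2 higher and 1 lower once the factors were removed. Bag5, a nucleotide exchange factor, was at 35.6, 19.8 and 28.6 FPKM in Rtcb KO, against 16, 13.3 and 10.3 FPKM in WT, without overlap (log2 fold change 1.02 with SE 0.23, limma adjusted p = 0.00568; log2 fold change 1.52, limma adjusted p = 0.00211 with the factors removed). Hspbp1, described above, is the other. Sgta averaged 83.6 ± 7.91 FPKM in Rtcb KO and 169 ± 26.2 FPKM in WT (log2 fold change −0.99, limma adjusted p = 0.000475) and fell under both scalings. Bag6, its partner in handling tail-anchored proteins, averaged 5.02 ± 0.582 FPKM in Rtcb KO and 9.78 ± 2.41 FPKM in WT (log2 fold change −0.82, limma adjusted p = 0.00652), and was not called with the factors removed. Bag3, a partner of small heat shock proteins, was below the filter in both genotypes (0.0343 ± 0.0331 FPKM in Rtcb KO and 0.014 ± 0.0243 FPKM in WT).

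Several values may share reads with neighbours. By GENCODE vM21, an annotation of a later build that was used for gene structure only, exons of 25 of the 85 members overlap exons of a gene on the other strand, among them Cct6a (Psph), Cct8 (Usp16), Tcp1 (Acat3 and Mrpl18) and Dnaja1 (Smu1). The sources used here do not say whether counting used strand, so reads of such pairs cannot be told apart. Usp16 averaged 64.4 ± 2.17 FPKM in Rtcb KO and 109.7 ± 10.4 FPKM in WT and Smu1 239.6 ± 19.4 FPKM in Rtcb KO and 415 ± 6.27 FPKM in WT. Both were lower as deposited, as was Acat3 (21 ± 1.82 FPKM in Rtcb KO and 36 ± 2.03 FPKM in WT), while Mrpl18 averaged 545 ± 21.6 FPKM in Rtcb KO and 639 ± 78.6 FPKM in WT. None of Usp16, Smu1 and Acat3 was called with the factors removed. Cct4, Hsf2 and Hspb1 have no such neighbour and no pseudogene named after them there.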

How the data were processed

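Polyadenylated RNA of 3 Rtcb KO and 3 WT libraries was measured, grouped by the genotype in the titles. Deposited values are FPKM, 1 row a symbol, that the authors normalized to ERCC spike-ins, per the labels; TopHat2 2.1.1, Cufflinks 2.2.1 and build mm9 are named in the submitters' processing notes, and the annotation is not named there. Cufflinks values carry 6 significant digits. Of 459 candidate fractions, division by 2 (WT) and by 4/3 (Rtcb KO) restored them for 100% of values of at least 1 (tolerance 0.01 of the last digit; next best fraction at most 76.8%), so each genotype carries one factor, and spike-in variation among its replicates does not enter the spread.

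The limma fit (version 3.58.1) used log2(FPKM + 1) of genes whose mean reached 1 FPKM (R 4.3.3, intensity trend, two-sided, Benjamini-Hochberg over all 12029), a step also tested on simulated data. Pair ratios were tested by exact permutation. Members, lists and tests were chosen with earlier results of these data known. Named were Rtcb, every TRiC subunit, a fixed set of HSP, HSF and DnaJ genes, the 6 largest rises and falls among called members without overlap and at least 5 FPKM in the higher group, the 3 smallest p per DnaJ class, and the 2 largest changes each way per co-chaperone list; further members are named after their values were seen. Promoter windows are from RefSeq (GRCm38.p6), matched by symbol for 68 of 85 members. Alternatives were other pseudocounts, filters and scalings, no trend, a replicate block, and single libraries left out. Python 3.11.15 (numpy 2.4.6, pandas 2.3.3, matplotlib 3.10.9) was used. Read counts and depth are not in these values.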

Additional observations from a re-analysis of the deposited data

How the results depend on the processing

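The scaling decided most counts. Higher members numbered 5 as deposited, 14 with equal totals, 18 with median-ratio rescaling and 24 with the genotype factors removed, and lower members 36, 22, 19 and 17. With the factors removed and 1 library left out (chosen after seeing the data), higher members numbered 16, 24 and 17 without Rtcb KO 1, 2 and 3 and 19, 17 and 18 without WT 1, 2 and 3, and lower members 9, 15 and 9 and then 13, 9 and 14. As deposited, single libraries left out gave 4 to 8 higher and 30 to 39 lower. DnaJ genes called higher, 0 as deposited, numbered 5, 9 and 13 under the 3 scalings in the order above, 1 each with no filter, a mean of at least 10 FPKM, no intensity trend or the replicate block, and 0 to 2 without single libraries. DnaJ genes called lower numbered 19 as deposited, then 10, 8 and 6. HSP70 and HSP110 genes called higher, 0 as deposited, numbered 2 under each scaling, 1 with no trend and 0 to 1 without single libraries. Class sum ratios with equal totals, median-ratio rescaling and factors removed were 0.869, 0.919 and 0.966 for TRiC, 0.823, 0.871 and 0.916 for HSP70 and HSP110, 0.827, 0.874 and 0.918 for HSP90, 2.3, 2.42 and 2.54 for the small HSP symbols (Hspb11 included) and 1.00, 1.06 and 1.12 for DnaJ genes. Log2 fold changes turned positive under the same 3 scalings for Cct3 (0.21, 0.29 and 0.36), Cct7 (0.070, 0.15 and 0.22), Dnaja1 (0.25, 0.33 and 0.40), Dnajb4 (0.16, 0.24 and 0.31), Hspa4 (0.20, 0.28 and 0.35) and Hspa9 (0.074, 0.16 and 0.22). These are the ones among the genes named by the rule, and of them Dnajb4 was called as deposited. Over all tested members 18 changed sign with the factors removed, 6 of them called lower as deposited (Dnajb4, Dnajc14, Dnajc15, Dnajc18, Dnajc30 and Hspb11). Without single libraries, Hspa1b ran between −0.17 and 0.19 and Hspe1 between −0.011 and 0.18. The log2 difference of Hspa2 to Hspa8 was −0.25 at a pseudocount of 1 and 0.33 at a pseudocount of 5. Without a pseudocount the Hspa2 to Hspa8 ratio was lower in every Rtcb KO library than in every WT library. The cause of these changes was not tested beyond the factor itself. Deviations of same-numbered libraries had correlations of 0.14, −0.099 and 0.038. Rtcb KO 1 and 3 correlated best with the WT library of their own number, and Rtcb KO 2 with WT 3 (0.17). Correlations this small cannot settle whether the numbers pair the libraries. The replicate block gave 6 members higher and 38 lower. The 5 rises, and the 17 falls called under both scalings, kept their direction under the 3 other scalings. All 3 raise the ratios of Rtcb KO to WT, and the 17 falls were selected with the factors removed, so this is no separate check. Depth is unknown, so counting error cannot be set against low values.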
